A study of Mus with 4 samples.

Results

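The 7SK RNA (Rn7sk), the RNA of the signal recognition particle (Rn7s1) and the RNA of RNase P (Rpph1) were examined for pseudouridine (Ψ), the isomer of uridine, in mouse cochlea. These 3 genes were taken by name from a table of 465 genes, and each held 1 of the table's 755 sites. All 3 sites had values in both replicates. The table came from PRAISE, a chemistry in which sulfite and bisulfite convert Ψ into an adduct that reverse transcriptase skips, so that a modified base is read as a deletion. The samples were cochlear tissue of mice carrying Otof c.1315 C > T (p.R439X), a CRISPR-Cas9 knock-in that places a stop codon in the gene for otoferlin, the calcium sensor of the inner hair cell synapse. Of the 4 samples in the series, 2 came from such mice given RESTART v3, which directs Ψ to that stop codon with a guide snoRNA, and 2 from mice without it. The columns analysed here name the Otof mutant and replicates 1 and 2, and by the sample titles these are the untreated mice. Samples given RESTART v3 are not analysed here. Nothing in the labels says how many animals gave each sample or their age, so the spread between replicates may be partly technical. The table gives modified sites and not expression. Of 11 cochlear marker genes, 3 (Otog, Otos and Triobp) had a site in it, against 0.904% of 21900 annotated protein-coding genes. Otof, Otoa, Coch, Tecta, Tectb, Myo7a, Slc26a5 and Pou4f3 had none, and nothing is read from this count about the tissue.

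All 3 RNAs are non-coding products of RNA polymerase III that act inside protein complexes. The 7SK RNA is the scaffold on which HEXIM proteins hold the elongation factor P-TEFb inactive, with LARP7 and the capping enzyme MEPCE bound to the RNA. The signal recognition particle RNA carries the SRP proteins, which bind signal peptides at the ribosome and bring it to the endoplasmic reticulum. The RNA of RNase P is the catalytic part of the enzyme that removes the 5′ leader of precursor tRNAs. Uridines of stable RNAs are turned into Ψ by stand-alone synthases or by H/ACA particles, in which a small RNA guides the synthase dyskerin (Dkc1). In human 7SK, a Ψ made by such a particle at position 250 has been described.

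The site of Rn7sk (NR_030687.1) was position 250 of a 332-base RNA, 82 bases from its 3′ end, on the minus strand of chromosome 9 at 78082666 (GRCm39). The site of Rn7s1 (NR_052007.1) was position 236 of 299 bases, 63 bases from the end, on the plus strand of chromosome 12 at 69206304. The site of Rpph1 (NR_002142.2) was a pair of adjacent positions, 151 to 152 of 325 bases, with a listed coordinate of 51045077 on the minus strand of chromosome 14. The sites thus lay at 75.3%, 78.9% and 46.5% of the length of the Rn7sk, Rn7s1 and Rpph1 RNAs. A deletion within the pair in Rpph1 cannot be assigned to either position. The gene table annotates Rn7sk as snRNA, Rn7s1 as scRNA and Rpph1 as RNase P RNA, and none of them has a coding or untranslated region. A second signal recognition particle gene of the same length, Rn7s2, is annotated on chromosome 12 and had no listed site, and whether its reads were counted under Rn7s1 was not tested. The sequences around the sites are not shown, since no sequence was used here.

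The modification level, that is, the percentage of reads with a deletion in the chemistry library minus that in a control library without the chemistry, differed widely between the 3 RNAs. Rn7sk carried the deletion in most chemistry reads, and Rpph1 and Rn7s1 in fewer than 20% of them. In Rn7sk, 73153 of 107365 chemistry reads carried the deletion in replicate 1 and 44479 of 66838 in replicate 2, against 761 of 453828 and 112 of 74576 control reads. The level at this site was 68.0% in replicate 1 and 66.4% in replicate 2, with a mean of 67.2% ± 1.11 (SD, n = 2). The other 34212 and 22359 chemistry reads over position 250 of Rn7sk had no deletion.

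In Rpph1, 9085 of 48299 chemistry reads carried the deletion in replicate 1 and 4272 of 21893 in replicate 2, against 419 of 225273 and 42 of 26666 control reads. The levels of Rpph1 were 18.6% and 19.4%, with a mean of 19.0% ± 0.517 (SD, n = 2). In Rn7s1, 33665 of 200655 chemistry reads carried the deletion in replicate 1 and 23449 of 143345 in replicate 2, against 1825 of 1014700 and 331 of 180659 control reads. The levels of Rn7s1 were 16.6% and 16.2%, with a mean of 16.4% ± 0.299 (SD, n = 2). Each of the 3 sites was called in both replicates (two-sided Fisher exact p under 0.005 against the control, level above 5 points, control deletions in less than 5% of reads, and a minimum of 20 reads per library). The table holds sites that had already passed nearly these rules, and 98.6% of the 434 sites with enough reads were called as well, so the calls are no result about these RNAs.

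**Figure D1:**
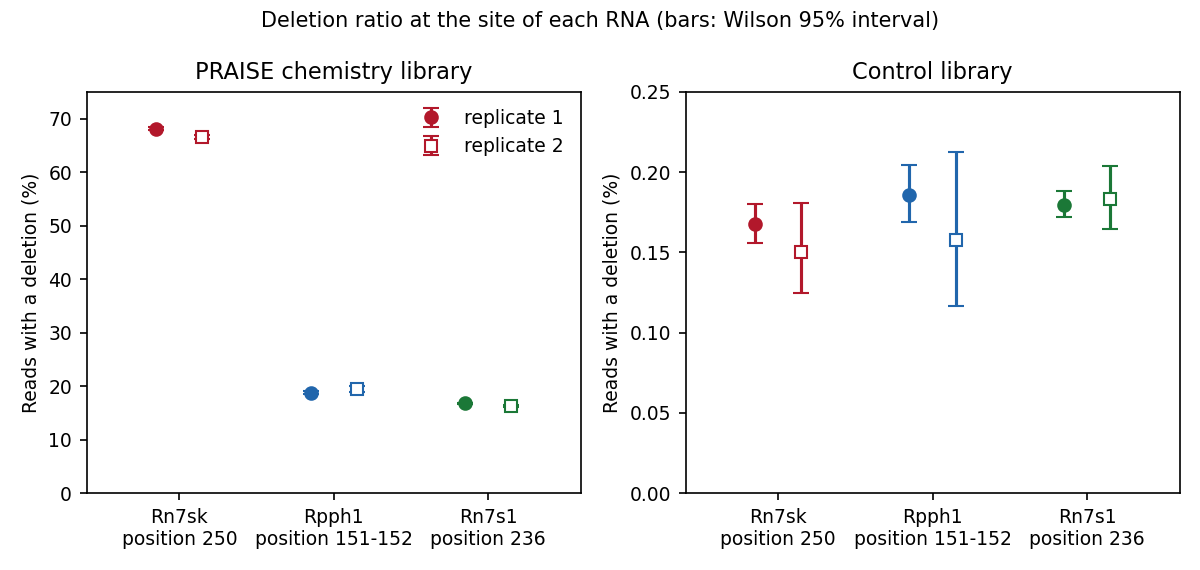
Percentage of reads with a deletion at the site of Rn7sk, Rpph1 and Rn7s1, in the chemistry library (left, 0 to 75%) and the control library (right, 0 to 0.25%); filled circles are replicate 1, open squares replicate 2, and bars are Wilson 95% intervals for counting error. Rn7sk stands at 68.1% and 66.5% with the chemistry, Rpph1 at 18.8% and 19.5% and Rn7s1 at 16.8% and 16.4%, while all control ratios lie between 0.150% and 0.186%.

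The order was Rn7sk, then Rpph1, then Rn7s1 in each replicate, and the replicate values of different RNAs did not overlap. The mean of Rn7sk was 3.54 times that of Rpph1 and 4.10 times that of Rn7s1. Rpph1 and Rn7s1 were the closest pair. Rpph1 exceeded Rn7s1 by 2.03 points in replicate 1 (95% interval 1.64 to 2.41) and by 3.18 points in replicate 2 (2.62 to 3.74), more than the spread of either RNA between replicates. These intervals come from the binomial errors of the reads and cover counting error only, since reads are not all independent molecules. With 2 values against 2, a two-sided exact permutation test cannot go below p = 0.333, and it gave p = 0.333 for each of the 3 pairs (0.333 after Benjamini-Hochberg adjustment over the pairs).

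Background deletion without the chemistry was nearly the same at the 3 sites. Rn7sk had control ratios of 0.168% and 0.150% in replicates 1 and 2, Rpph1 of 0.186% and 0.158%, and Rn7s1 of 0.180% and 0.183%. Their Wilson 95% intervals overlapped between replicates at each RNA, the widest being that of Rpph1 in replicate 2 (0.117% to 0.213%, over 26666 reads). None of the 3 RNAs passed a two-sided Fisher exact test between the control libraries, even unadjusted (Fisher exact, p = 0.307 for Rn7sk, 0.325 for Rpph1 and 0.763 for Rn7s1). After Benjamini-Hochberg adjustment, 0.21% of the 477 sites tested passed (1 site, with 11 at an unadjusted p under 0.05). The control ratios of Rn7sk, Rpph1 and Rn7s1 were close to the median of the 67 sites with at least 1000 chemistry reads in each replicate, which was 0.168% in replicate 1 and 0.167% in replicate 2. They were above the medians of all 434 sites with enough reads, 0.0533% and 0.0137%, and exceeded 59.0% to 64.1% of those sites. The deletion ratio with the chemistry was 406 and 443 times the control ratio in Rn7sk, 101 and 124 times in Rpph1, and 93.3 and 89.3 times in Rn7s1.

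Agreement of the replicates was compared next, because the depth at these sites gives narrow counting errors. Rn7sk differed by -1.57 points (replicate 2 minus replicate 1, 95% interval -2.02 to -1.12), which passed the replicate test on chemistry reads (two-sided Fisher exact, adjusted p = 2.81e-09 over 441 sites). Rn7s1 differed by -0.42 points (-0.68 to -0.17) and passed narrowly (Fisher exact, adjusted p = 0.0496). This call was lost in 3 of 5 alternatives, for example when sites from 10 reads on were tested (Fisher exact, adjusted p = 0.0538), and the adjusted p ranged from 0.00941 to 0.0579 over the 5. Rpph1 differed by 0.73 points (0.10 to 1.36) and did not pass (Fisher exact, unadjusted p = 0.0285, adjusted p = 0.293). Of these 3 sites 2 passed, against 2.27% of all sites tested and 11.9% of the 67 with at least 1000 reads in each replicate. With only those 67 tested and adjusted over, the same 2 of the 3 passed, against 26.9% of the 67. The 3 include the deepest sites of replicate 1, and small differences pass more readily at high depth. The test sets 2 libraries against read-sampling error and measures no spread among animals.

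The sizes of these differences lay within the range of other deep sites. The absolute difference was 1.57 points in Rn7sk, 0.732 in Rpph1 and 0.422 in Rn7s1, against a median of 0.741 and a maximum of 10.2 at the 64 other deep sites. Counted from the largest, Rn7sk ranked 18th, Rpph1 35th and Rn7s1 50th of 67. U6 RNA (Rnu6), which forms the active site of the spliceosome and is also made by RNA polymerase III, is set beside them for its larger differences. All 5 of its sites were lower in replicate 2, by -3.36 to -10.2 points, over 53 to 1706 chemistry reads in replicate 1 and 47 to 1742 in replicate 2. Of the 5, 2 passed the same test. The maximum of 10.2 among the other deep sites was itself at position 40 of Rnu6. Outside Rnu6, the largest change at a deep site was -4.68 points, at positions 216 to 217 of Gm46178. Whether the change between replicates differed between U6 and the 3 RNAs was not tested.

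**Figure D2:**
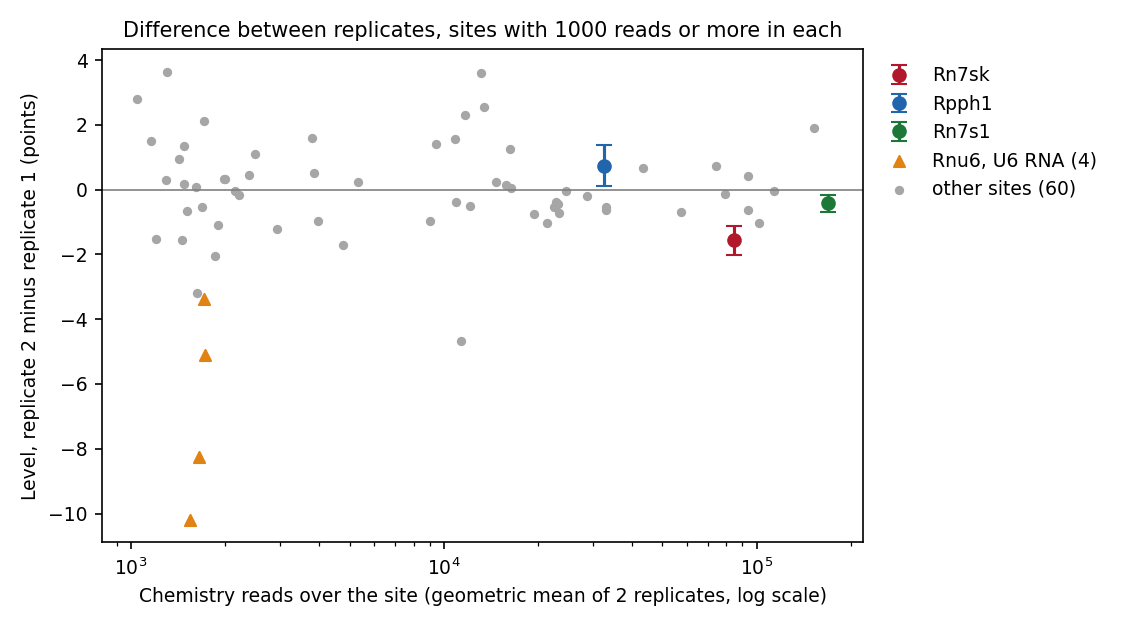
Level in replicate 2 minus replicate 1, in points, against chemistry reads per site (geometric mean of the replicates, log axis), for the 67 sites with at least 1000 reads in each; coloured circles are Rn7sk, Rpph1 and Rn7s1 with 95% intervals from counting error, triangles the 4 deep sites of Rnu6 and grey points the 60 others. The 3 RNAs lie between -1.57 and 0.73 points and the 4 Rnu6 sites between -3.36 and -10.2.

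Against the other sites of the table, Rn7sk stood high and the other two RNAs below the middle. The level of Rn7sk exceeded that of 78.8% of the 434 sites covered by 20 reads or more in every library, that of Rpph1 38.5% and that of Rn7s1 34.6%. The median mean level of the 434 sites was 26.8% (interquartile range 12.3% to 61.9%). Sites elsewhere range from 5.34% to 96.7%, and since a level over 5 points was needed to be listed, these ranks hold for listed sites only. Among the 67 deep sites, Rn7sk ranked 22nd, Rpph1 42nd and Rn7s1 43rd from the top.

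Deep sites of the most similar pattern were found by the distance between the levels of both replicates. Nearest to Rn7sk were 2 sites of Gm26917, a non-coding transcript on chromosome 17, at position 3769 (67.4% and 68.2%, 1.84 points away) and at positions 4540 to 4541 (64.4% and 63.4%, 4.68 points away). Chemistry reads at these Gm26917 sites were very uneven between replicates, with 10364 and 527620 at the first. Many of the deep sites compared here were of Gm26917. Nearest to Rpph1 were Malat1, the nuclear long non-coding RNA, at position 6274 (19.99% and 19.03%, 1.41 points) and the predicted gene Gm22357 at position 67 (19.5% and 22.2%, 3.01 points). Nearest to Rn7s1 were the snoRNA Snord14e at positions 28 to 29 (16.6% and 13.4%, 2.76 points) and the same site of Malat1 (4.43 points). With 2 samples, likeness here means only a similar level.

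Reads were far denser over the 3 RNAs than over most of the table. In replicate 1, Rn7s1, Rn7sk and Rpph1 had the most reads of all sites, in that order, in both the chemistry and the control library. In replicate 2 they held ranks 3, 4 and 5 in the control library, behind 2 sites of U2 RNA (Rnu2-10). Their ranks in the chemistry library of replicate 2 were 19 for Rn7s1, 28 for Rn7sk and 42 for Rpph1, and without 5 genes whose reads were uneven between replicates (Gm26917, Lars2, Gm46178, Gm15564 and Gm53756) they were 1, 2 and 4. Over all sites, the median was 121 chemistry and 319 control reads in replicate 1 (609 sites listed) and 137 and 228 in replicate 2 (646 sites listed). Reads over a site are not scaled and are no measure of abundance. In bulk tissue, fewer cells of a type and less RNA per cell cannot be told apart.

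**Figure D3:**
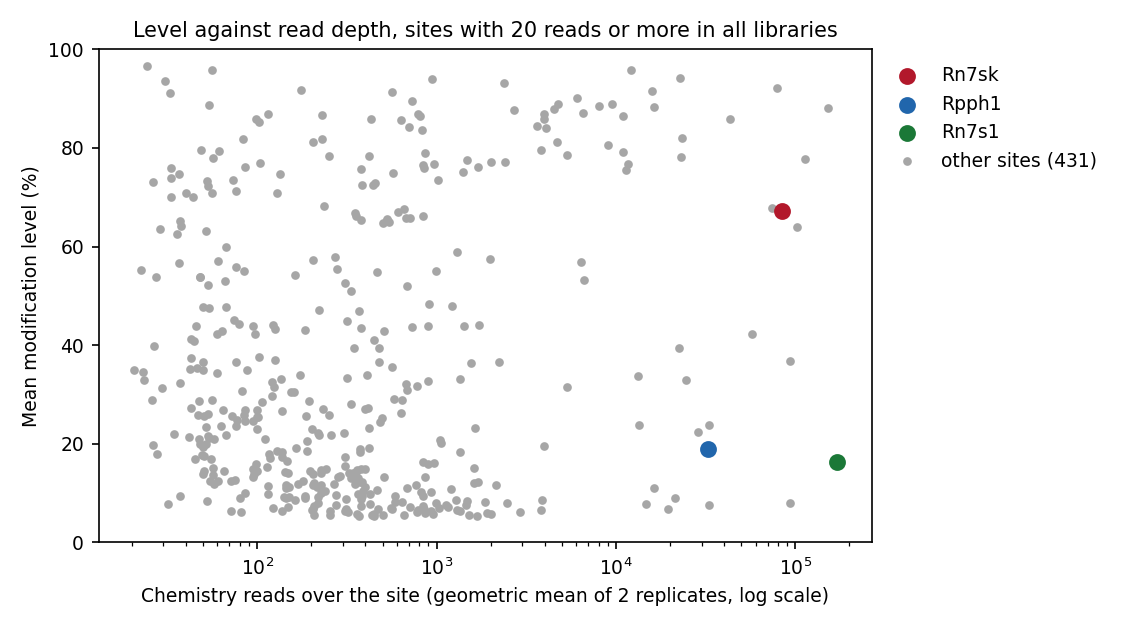
Mean modification level (%) against chemistry reads per site (geometric mean of the replicates, log axis) for the 434 sites covered by 20 reads or more in every library; Rn7sk, Rpph1 and Rn7s1 are coloured and the 431 others grey. The 3 RNAs lie among the deepest sites, Rn7sk at 67.2%, Rpph1 at 19.0% and Rn7s1 at 16.4%.

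The control libraries of the replicates differed in how many reads they held over these RNAs. Rpph1 had 8.45 times as many control reads in replicate 1 as in replicate 2, Rn7sk 6.09 times and Rn7s1 5.62 times, against a median of 1.19 at the 497 other sites listed in both replicates (5th to 95th percentile 0.131 to 4.29). These were the 1st, 5th and 8th highest ratios of 500, and the 1st, 3rd and 4th of the 67 deep sites. The 2nd of the deep sites was position 227 of Gm24105, annotated as lncRNA, with a ratio of 6.77. This site was named after its value was seen. Between the chemistry libraries the ratios were smaller, 2.21 in Rpph1, 1.61 in Rn7sk and 1.40 in Rn7s1, against a median of 0.941 at the other sites.

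Within a replicate, the 3 RNAs kept nearly the same proportion of chemistry to control reads. In replicate 1 it was 0.237 for Rn7sk, 0.214 for Rpph1 and 0.198 for Rn7s1, below the median of 0.436 at the other sites. In replicate 2 it was 0.896, 0.821 and 0.793 in the same RNAs, above the median of 0.703 at the other sites. The 64 other deep sites had medians of 0.808 in replicate 1 and 0.915 in replicate 2, and the 3 RNAs were below both. Many of these 64 sites lay in Gm26917, whose reads were uneven between replicates. Medians without the uneven genes were not computed. Of the control reads summed over listed sites, the 3 RNAs took 60.5% in replicate 1 and 18.0% in replicate 2, and of the chemistry reads 43.5% and 2.19% (54.3% and 44.0% without the 5 uneven genes). Sites that lie close together share reads, so these percentages do not describe whole libraries. The intervals of the control deletion ratios overlapped between replicates while the control reads differed 5.62- to 8.45-fold, and the part of read depth in the levels was not tested.

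**Figure D4:**
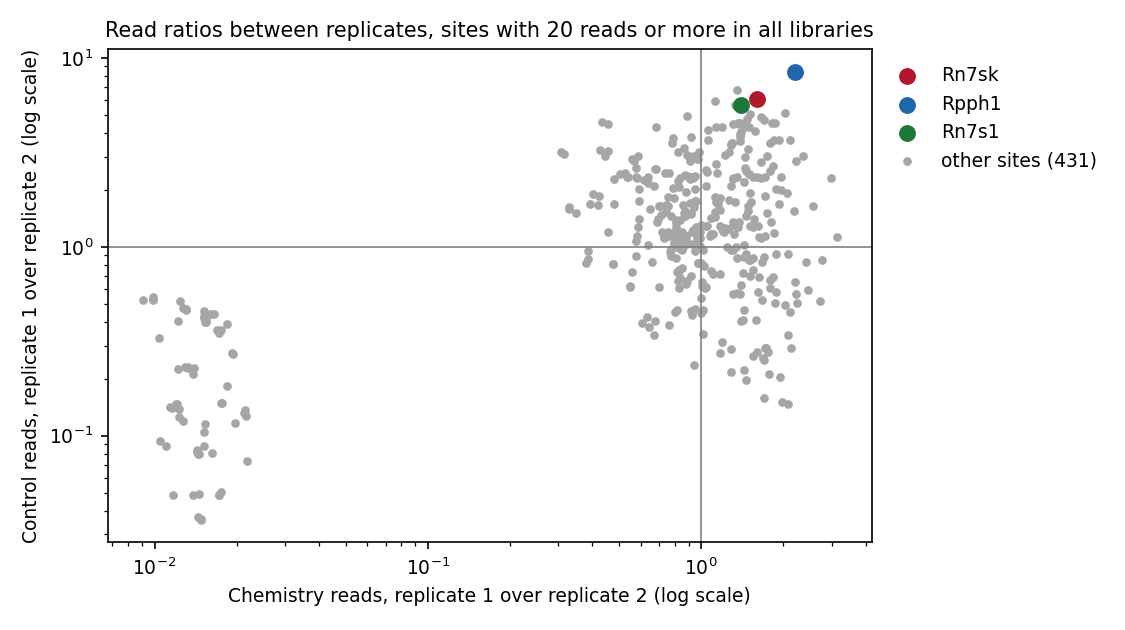
Control reads in replicate 1 over replicate 2 against the same ratio of chemistry reads, both on log axes, for the 434 sites covered by 20 reads or more in every library; grey lines mark a ratio of 1, coloured circles are Rn7sk, Rpph1 and Rn7s1 and grey points the 431 others. The 3 RNAs lie at the top edge with control ratios of 5.62 to 8.45, while their chemistry ratios are 1.40 to 2.21; the separate cloud at the lower left holds sites with far more chemistry reads in replicate 2.

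Among 17 other structured non-coding RNAs, 3 had a listed site, against 8.26% of 2396 annotated genes for small structured RNAs such as snRNAs and snoRNAs. The list of 17 does not include the RNAs of the major spliceosome other than U6, some of which also had listed sites. U6 (Rnu6) had 5 sites, with mean levels of 12.3% to 44.2%. U12 (Rnu12) of the minor spliceosome had 4, among them 85.8% ± 3.52 (SD, n = 2) at position 18 and 13.2% ± 1.70 at positions 33 to 34. The telomerase RNA (Terc), itself an H/ACA RNA, had 87.2% and 80.0% at position 341, over only 9 and 5 chemistry reads, and 32.0% at position 259 in replicate 1 alone (25 chemistry reads). The Wilson 95% interval of the chemistry ratio ran from 67.9% to 68.4% in replicate 1 and from 66.2% to 66.9% in replicate 2 for Rn7sk, against 56.5% to 98.0% and 37.6% to 96.4% for Terc position 341. Rmrp, the RNA of RNase MRP, which shares most of its proteins with RNase P, had no listed site, nor had the Y RNA genes Rny1 and Rny3. A gene without a listed site may have been unmodified, below the rules or without reads, and reads at unlisted positions were not analysed here.

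Genes of the proteins that work with these RNAs were looked up in the same table. None of 7 genes of the 7SK particle, such as Larp7, Mepce, Hexim1 and Cdk9, had one, and neither had any of 10 genes of the signal recognition particle and its receptor, of 11 of RNase P or of 21 of RNA polymerase III and its factors. Of 17 genes for Ψ synthases and H/ACA proteins, only Dkc1 had a site, at positions 483 to 484 in replicate 2 alone. Its level of 85.7% rested on 7 chemistry and 9 control reads (Wilson 95% interval of the chemistry ratio 48.7% to 97.4%), too few to be called. Of 21900 protein-coding genes in the gene table, 0.904% had a listed site, and nothing is read from these counts about the lists.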

How the data were processed

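PRAISE libraries were made from cochlear RNA after removal of ribosomal RNA, with a chemistry and a control library per sample; the labels give polyA RNA. The authors trimmed read 2 with cutadapt 4.2, removed identical reads and molecular identifiers (UMI-tools 1.0.0), thinned all libraries to a common size and aligned them with PRAISE-tool to GRCm39 RefSeq transcripts. Thinned libraries differ in how many reads fall on each RNA, and short RNAs with copies may share reads. The deposited counts were deletion and total reads per site and library, not normalized. The deposited deletion ratio and level were fractions of reads, and the deposited p-value was an unadjusted contingency table test, not used here. A script checked that the ratios and levels equal those from the counts.

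Levels, in percent, were recomputed from the counts. Fisher exact tests were two-sided, at a minimum of 20 reads. Those between replicates were run over the whole table with Benjamini-Hochberg adjustment at 0.05. Those against the control used an unadjusted p under 0.005. Only the replicate test on chemistry reads was tried on simulated data, with binomial error alone. The changes planted there were larger than the differences at the 3 RNAs, so its behaviour at such small differences was not tested. Intervals on ratios are Wilson 95% intervals and those on differences use binomial errors. Lengths and gene types came from a RefSeq table of GRCm38.p6, matched by transcript, whose coordinates were not used. Python 3.11.15, NumPy 2.4.6, SciPy 1.17.1 and pandas 2.3.3 were used. Alternatives covered the read minimum, control subtraction, pooling, left-out replicates, another test and left-out genes.

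The genes named were the 3 RNAs, the 2 deep sites nearest to each, and members of fixed gene lists. Gm24105, Rnu2-10, the copy Rn7s2 and the 5 genes of uneven reads were named outside that rule, after values were seen. Members and lists were chosen with earlier results of these data known.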

Additional observations from a re-analysis of the deposited data

How the results depend on the processing

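The mean levels of Rn7sk, Rpph1 and Rn7s1 stayed within 1 SD of the replicates without control subtraction and with pooled reads. With a replicate left out they ranged from 66.4% to 68.0% in Rn7sk, from 18.6% to 19.4% in Rpph1 and from 16.2% to 16.6% in Rn7s1, which 2 replicates cannot move beyond their SD. In all 5 alternatives the replicate difference of Rn7sk passed (Fisher exact or normal approximation, highest adjusted p 5.67e-09) and that of Rpph1 did not (lowest adjusted p 0.101). That of Rn7s1 (-0.42 points) no longer passed at a minimum of 10 reads, without the 5 uneven genes and by a normal approximation on the subtracted levels (Fisher exact, adjusted p = 0.0538 and 0.0523, and adjusted p = 0.0579 by the approximation); the first 2 change only which sites are adjusted over. Sites past the replicate test numbered 10, and 18 at a minimum of 1000 reads (8 shared) and 6 without the uneven genes (6 shared). Sites called in both replicates numbered 428, and 526 to 560 with one replicate. The share of sites below Rn7sk (78.8%), Rpph1 (38.5%) and Rn7s1 (34.6%) was 67.2%, 37.3% and 35.8% at a minimum of 1000 reads and 86.1%, 43.4% and 38.8% without the uneven genes, a setting for these shares chosen after seeing the data. No paired analysis was possible because no RESTART v3 values were analysed; the comparison with RESTART v3 was not run for the same reason. Few reads limit the values of Terc and Dkc1.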
